A study of Mus musculus with 6 samples.

Results

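The aryl hydrocarbon receptor group of 7 genes was examined among the 34745 genes of an RNA-seq table from NOR-10 cells, a line of mouse skeletal muscle fibroblasts. The group holds the receptor Ahr, its partner Arnt, its repressor Ahrr and the targets Cyp1a1, Cyp1b1, Tiparp and Aldh3a1. It was chosen from a rise of Cyp1a1 already seen in these libraries, and the question was whether the other targets share that rise. The differences of the members between the groups are therefore given as descriptions with their errors and without p-values. All 7 gene names were found once in the table, and 6 of the 7 passed the filter on low counts, Ahrr being the exception.

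The control group (Con, n = 3) received PBS and the D-gal group (Dgal, n = 3) received D-galactose at 20 mg/mL for 3 days, as the methods give it. All cells were of this 1 line, no other treatment or genetic change is named in the sources used here, and whether the replicates came from separate cultures is not given there, so errors and p-values measure the spread between these libraries. Library totals lay between 16876087 and 20830349 counts for controls and between 13759108 and 15157064 counts with D-gal. Normalized counts are scaled by each library's total over the genes tested and by TMM factors, which were close to 1. The fibroblast markers Col1a1, Col1a2, Pdgfra, Pdgfrb, Vim and Thy1 had at least 2327 counts in every library, while Lum had 1 count in all. Dcn, the remaining marker, fell by 1.42 on the log2 scale (edgeR adjusted p = 4.28e-04), the largest change in the list. Of the 8 fibroblast markers 7 were tested, of which 1 rose and 5 fell by edgeR, beside 16.9% and 17.8% of all genes tested, and the list fell in sum from between 7027 and 7220 CPM (counts scaled to a common library total) in control libraries to between 4637 and 4760 in D-gal libraries. Since these are bulk samples, fewer cells of a type and less RNA per cell cannot be told apart.

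The receptor is a transcription factor of the bHLH-PAS family, held in the cytoplasm by chaperones until a ligand such as a dioxin, a polycyclic aromatic hydrocarbon or a tryptophan derivative binds. It then enters the nucleus, pairs with ARNT and binds DNA at response elements with the core GCGTG. Cyp1a1 and Cyp1b1, which encode oxidising enzymes of cytochrome P450 family 1, Tiparp, which encodes an ADP-ribosyltransferase, Aldh3a1, which encodes an aldehyde dehydrogenase, and Ahrr, which encodes a repressor that competes for ARNT, are known targets. TIPARP and the repressor are both known to restrain the receptor.

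Promoter windows, from 250 bases before to 50 bases after the transcription start, were taken from RefSeq (GRCm38.p6) and were found for 5 of the 7 genes, the exceptions being Ahr and Aldh3a1. They were searched for GCGTG and for the longer element TNGCGTG, each on both strands, every match of the second being also a match of the first. The 5 windows all held GCGTG, with 3 matches in Ahrr and 1 in each of the others. Among all 32851 windows of the table, 32.4% held at least 1 match and 3.91% at least 3. TNGCGTG was found only in the Ahrr window, and in 5.07% of all windows. The matches are printed with their flanks because genes that moved differently can be compared in them. Capitals mark GCGTG or, where the match lies on the other strand, its reverse complement, CACGC, read in the direction of the gene. For Ahrr the match within TNGCGTG is shown.
Cyp1a1, chr9:57697539-57697583, plus strand: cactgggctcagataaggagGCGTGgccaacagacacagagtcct
Cyp1b1, chr17:79715113-79715157, minus strand: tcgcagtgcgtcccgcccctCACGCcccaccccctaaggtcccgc
Tiparp, chr3:65528257-65528301, plus strand: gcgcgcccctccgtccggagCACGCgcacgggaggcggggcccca
Arnt, chr3:95434341-95434385, plus strand: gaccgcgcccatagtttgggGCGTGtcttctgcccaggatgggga
Ahrr, chr13:74292334-74292378, minus strand: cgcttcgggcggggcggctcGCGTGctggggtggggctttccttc

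Counted from the transcription start, the core lay at -54 to -50 in Cyp1a1, -76 to -72 in Cyp1b1, -170 to -166 in Tiparp, -29 to -25 in Arnt and -27 to -23 in Ahrr. The whole stretch before the start of Cyp1a1 (chr9:57697363-57697612, plus strand) is printed because the question turns on this gene: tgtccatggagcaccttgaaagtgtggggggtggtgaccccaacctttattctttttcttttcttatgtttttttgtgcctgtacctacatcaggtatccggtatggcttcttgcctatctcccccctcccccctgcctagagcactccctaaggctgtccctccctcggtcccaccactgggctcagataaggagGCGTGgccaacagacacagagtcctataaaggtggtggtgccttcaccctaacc. The response elements for which mouse Cyp1a1 is best known lie further upstream and were not searched. A match describes letters only and does not show binding.

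Among the members, Cyp1a1 was higher with D-gal by 1.84 on the log2 scale, Ahr and Aldh3a1 differed by -0.84 and -2.39, and Arnt, Cyp1b1 and Tiparp by -0.02, -0.09 and -0.02. An adjusted p-value under 0.05, the threshold used for all genes, was reached by 3 of the 6 tested, 1 higher and 2 lower, beside 34.8% of all 13407 genes tested, with 16.9% higher and 17.8% lower. With the study's second criterion, an at least 2-fold change in either direction, 2 members were differentially expressed, Cyp1a1 and Aldh3a1, beside 4.21% of all genes. Nothing is read from these shares, because the group was chosen with this contrast in view. The median log2 fold change of the 6 members was -0.05, and that of all genes tested was 0.0036.

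**Figure D1:**
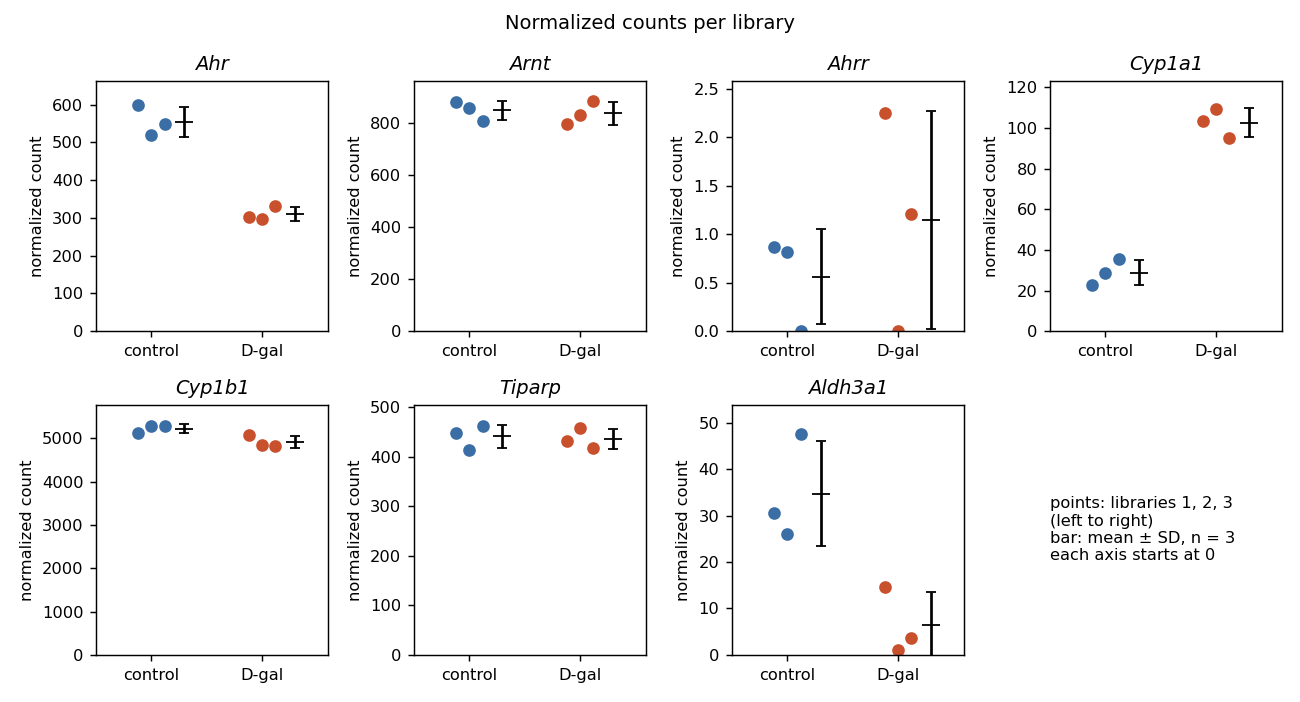
Normalized counts (counts divided by the library's TMM-scaled size, times the mean size) of the 7 genes in each of the 3 control and 3 D-gal libraries, with the mean ± SD beside the points; each axis starts at 0, which cuts the lower arm of the D-gal bar of Aldh3a1. The Cyp1a1 values lie between 22.7 and 35.3 in control and between 95.2 and 109 in D-gal libraries, while those of Ahr and Aldh3a1 lie lower in D-gal libraries and those of Arnt and Tiparp overlap.

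Cyp1a1 (ENSMUSG00000032315, chromosome 9, 57697613 to 57703822 on the plus strand of GRCm38), whose enzyme oxidises polycyclic aromatic hydrocarbons, had 26, 35 and 35 counts in controls and 92, 100 and 79 with D-gal. Each D-gal library held more counts than each control library, although the D-gal libraries were the smaller ones. After normalization the level was 28.9 ± 6.35 (SD, n = 3) in controls and 102.5 ± 7.03 (SD, n = 3) with D-gal. The log2 fold change was 1.84 (standard error 0.19, 95% interval 1.41 to 2.27), a 3.57-fold rise, which was number 78 in size among the 6785 genes with a positive fold change. Counting error alone gives the summed counts of 96 and 271 exact 95% Poisson intervals of 1.36 to 2.05 and 5.48 to 6.97 CPM.

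The rise of Cyp1a1 was from a low level. Its deposited FPKM values, which are per length, were 0.510, 0.642 and 0.792 in controls and 2.37, 2.52 and 2.19 with D-gal. Of 94 cytochrome P450 genes, Cyp1a1 was number 11 by mean FPKM in controls and number 7 with D-gal. No other gene overlaps its exons in GENCODE M21, and 5.52% of its sequence words of 31 bases occur in other annotated genes. Its neighbour Cyp1a2, another known receptor target, lies on the other strand. The gap is 4225 bp in GENCODE M21, which starts Cyp1a1 at 57687928, and wider from the start given above. Cyp1a2 had 0 counts in every control library and 0, 2 and 2 with D-gal.

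Cyp1b1 (ENSMUSG00000024087, chromosome 17, 79706953 to 79715041, minus strand), whose enzyme acts on steroids, retinoids and aromatic hydrocarbons, is the family 1 gene known from mesenchymal cells. It had 5871, 6464 and 5234 counts in controls and 4526, 4441 and 4010 with D-gal. The normalized level was 5225 ± 94.7 (SD, n = 3) in controls and 4920 ± 138 (SD, n = 3) with D-gal. All D-gal values lay below all control values, but closely, with 5079 as the highest D-gal and 5116 as the lowest control value. By deposited FPKM the groups overlapped, with 59.4 in D-gal replicate 1 and 58.8 in control replicate 1. The log2 fold change was -0.09 (standard error 0.03, 95% interval -0.16 to -0.01), and the threshold was not passed. Without D-gal replicate 1 it was -0.11, then just past the threshold.

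Cyp1b1 was the most highly expressed of the 94 P450 genes in both groups, at 59.9 ± 0.966 FPKM (SD, n = 3) in controls and 57.8 ± 1.42 FPKM (SD, n = 3) with D-gal. It made up between 49.3% and 51.4% of the summed FPKM of these genes in control libraries and between 45.7% and 46.6% in D-gal libraries. Cyp1a1 made up between 0.428% and 0.658%, and between 1.79% and 2.01%. Within a library, the FPKM of Cyp1b1 was 115, 94.3 and 76.4 times that of Cyp1a1 in controls and 25.1, 22.7 and 25.9 times with D-gal. The ratio of the family 1 genes was thus lower in every D-gal library than in every control library. With the exon lengths of GENCODE M21 in place of the authors' lengths, the mean ratio was 89.1 ± 18.2 (SD, n = 3) and 23.0 ± 1.58 (SD, n = 3).

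**Figure D2:**
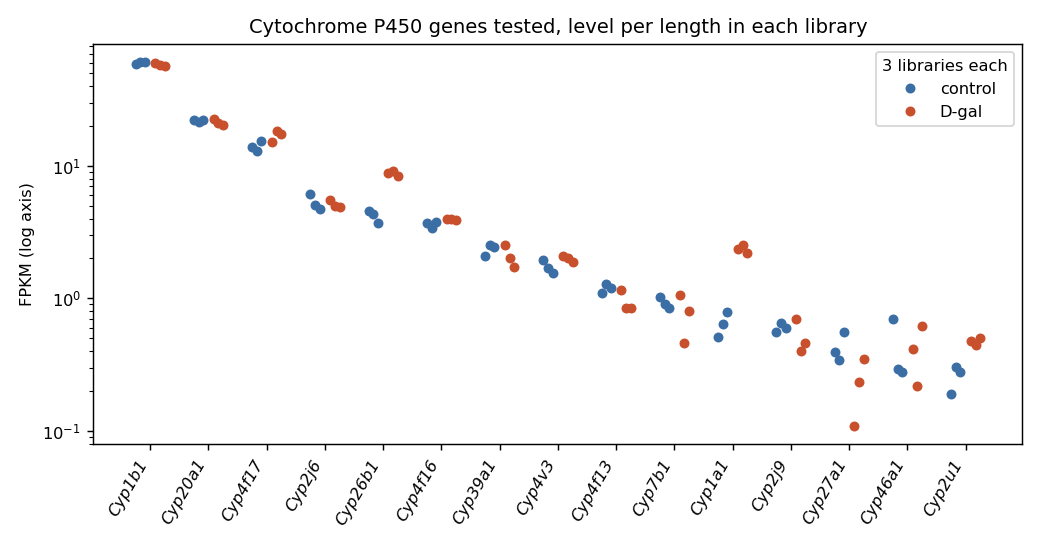
FPKM (log axis) of the 15 cytochrome P450 genes that passed the filter on low counts, in each of 3 control and 3 D-gal libraries, ordered by their control mean. Cyp1b1 is highest in both groups; Cyp1a1, Cyp26b1, Cyp2u1 and Cyp4f16 lie higher in all D-gal than in all control libraries.

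Tiparp (ENSMUSG00000034640, chromosome 3, 65528410 to 65555518, plus strand) had 513, 508 and 457 counts in controls and 384, 420 and 347 with D-gal. After normalization the groups overlapped, with 441 ± 24.1 (SD, n = 3) in controls and 436 ± 20.7 (SD, n = 3) with D-gal. On the log2 scale the difference was -0.02 (standard error 0.07, 95% interval -0.18 to 0.15). An antisense gene, 4931440P22Rik, overlaps an exon of Tiparp and had between 2 and 12 counts per library. Whether counting used the strand is not given in the sources used here.

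Aldh3a1 (ENSMUSG00000019102, chromosome 11, 61207537 to 61218421, plus strand) moved opposite to Cyp1a1. It had 35, 32 and 47 counts in controls and 13, 1 and 3 with D-gal. All D-gal libraries were lower than all control libraries, and D-gal replicate 1 stood well above the other two. The normalized level was 34.7 ± 11.3 (SD, n = 3) in controls and 6.43 ± 7.18 (SD, n = 3) with D-gal. The log2 fold change was -2.39 (standard error 0.60, 95% interval -3.77 to -1.01). It was -3.83 without D-gal replicate 1, -2.11 without control replicate 3 and -2.13 without D-gal replicate 3, and in the last pair of fits it no longer passed the threshold. With all libraries thinned to 13759108 counts, 24, 23 and 39 counts were left in controls and 12, 1 and 3 with D-gal.

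Ahrr (ENSMUSG00000021575, chromosome 13, 74211118 to 74292331, minus strand), a sensitive target in many cell types, was barely detected. It had 1, 1 and 0 counts in controls and 2, 0 and 1 with D-gal. The summed counts of 2 and 3 correspond to 0.0350 CPM (exact 95% Poisson interval 0.00424 to 0.126) and 0.0685 CPM (0.0141 to 0.200). No difference was detectable at this depth, and no fold change is given.

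The receptor gene itself was lower with D-gal. Ahr (ENSMUSG00000019256, chromosome 12, 35497974 to 35535038, minus strand) had 686, 636 and 542 counts in controls and 269, 272 and 274 with D-gal. The normalized level was 555 ± 39.9 (SD, n = 3) in controls and 309.7 ± 17.9 (SD, n = 3) with D-gal, without overlap. The log2 fold change was -0.84 (standard error 0.08, 95% interval -1.03 to -0.66), so the D-gal level was 55.8% of the control level. This passed the threshold on the adjusted p-value but not the study's fold change criterion. An antisense gene, Gm48236, overlaps an exon of Ahr, but no gene of that name was found in the table, so its counts cannot be given.

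Arnt (ENSMUSG00000015522, chromosome 3, 95434388 to 95497240, plus strand), the partner through which the receptor binds DNA, had 1011, 1054 and 801 counts in controls and 712, 762 and 736 with D-gal. Normalized levels overlapped, with 850.0 ± 37.1 (SD, n = 3) and 839 ± 44.4 (SD, n = 3). On the log2 scale the difference was -0.02 (standard error 0.06, 95% interval -0.16 to 0.12). Within a library, the FPKM of Arnt was 0.732, 0.824 and 0.734 times that of Ahr in controls and 1.32, 1.39 and 1.33 times with D-gal. The authors' lengths count overlapping exons of Arnt repeatedly, and with the GENCODE exon lengths the mean ratios were 1.18 ± 0.0806 (SD, n = 3) and 2.09 ± 0.0619 (SD, n = 3). The ratio was thus higher in D-gal libraries with either length, but whether Arnt or Ahr was the higher gene in controls depended on the length.

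In the D-gal group the lengthwise order of the members was Cyp1b1 (57.8 FPKM), Tiparp (4.97 ± 0.245), Arnt (3.84 ± 0.211), Ahr (2.85 ± 0.167), Cyp1a1 (2.36 ± 0.164), Aldh3a1 (0.172 ± 0.191) and Ahrr (0.00619 ± 0.00603), each as mean ± SD with n = 3. In controls the order was Cyp1b1, Ahr (4.99 ± 0.367), Tiparp (4.91 ± 0.264), Arnt (3.80 ± 0.175), Aldh3a1 (0.906 ± 0.293), Cyp1a1 (0.648 ± 0.141) and Ahrr. There the ranges of Ahr and Tiparp overlapped, and so did those of Aldh3a1 and Cyp1a1, although within each control library Cyp1a1 was below Aldh3a1, at 0.638, 0.940 and 0.640 times its FPKM. The order of close neighbours depends on the lengths used.

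Of the other known receptor targets, 16 were listed and 10 were tested, and 3 rose while 5 fell at an adjusted p-value under 0.05 in edgeR's quasi-likelihood test, beside the 16.9% and 17.8% of all genes. Their median log2 fold change was -0.31. This list, like those below, was chosen with earlier results of these data known, so it is no independent check. Of the 10 tested, 1 gene passed both criteria, beside 4.21% of all genes tested, and it fell. Ptgs2, the inducible cyclooxygenase, had 13605, 14347 and 11792 counts in controls and 16573, 16579 and 14847 with D-gal. After normalization it was 11824 and 18198 on average, a log2 fold change of 0.62 (standard error 0.03, edgeR adjusted p = 4.57e-06). Socs2, a suppressor of cytokine signalling, rose by 0.90 (standard error 0.14, edgeR adjusted p = 0.00169).

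Of the targets that fell, Nqo1, a quinone reductase, had 559, 595 and 505 counts in controls and 324, 315 and 317 with D-gal, and fell by 0.44 on the log2 scale (standard error 0.07, edgeR adjusted p = 0.00172). Xdh, the xanthine dehydrogenase gene, fell by 0.43 (standard error 0.05, edgeR adjusted p = 3.18e-04), and Nfe2l2, which encodes NRF2, fell by 0.19 (standard error 0.04, edgeR adjusted p = 0.0108). Ereg, which encodes the growth factor epiregulin, fell by 0.48 (standard error 0.14, edgeR adjusted p = 0.0335). Ugt1a6a, a glucuronosyltransferase, had 432, 279 and 140 counts in controls and 121, 55 and 51 with D-gal, a log2 fold change of -1.54 (standard error 0.42, edgeR adjusted p = 0.0236). It shares exons with the other Ugt1a genes and 53.0% of its sequence words with other genes, so its count is uncertain. It was lost at this threshold without control replicate 1 (-1.11), D-gal replicate 2 (-1.33) or D-gal replicate 3 (-1.35). Abcg2, an efflux transporter, and Ugt1a6b did not pass, with log2 fold changes of -0.12 and -1.18. Cyp1a2, Cyp2s1, Gsta1, Gsta2, Scin and Serpinb2 were too low to test, with at most 61 counts over all libraries.

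**Figure D3:**
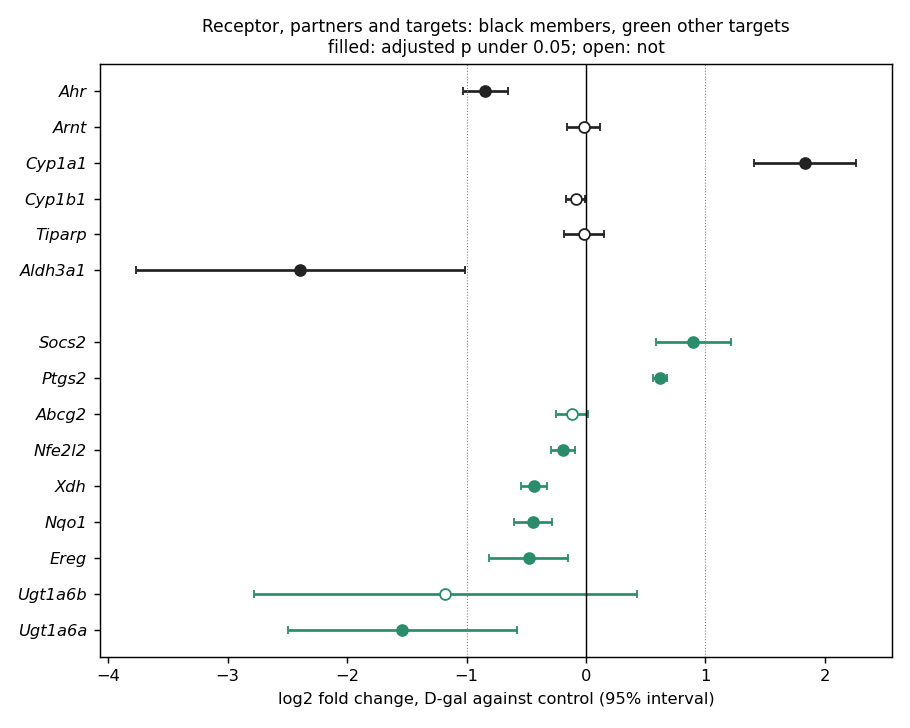
Log2 fold change of D-gal against control with its 95% interval for the 6 members tested (black) and 9 of the 10 other receptor targets tested (green); filled points passed an adjusted p-value under 0.05 and open points did not. Cyp1a1 lies alone above 1, the targets Cyp1b1 and Tiparp lie at -0.09 and -0.02, and Aldh3a1 and Ahr lie below 0.

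In the complex that holds the receptor, 3 of 6 genes passed the threshold, 2 higher and 1 lower, beside 16.9% and 17.8% of all genes. Hsp90ab1, which encodes a chaperone of the receptor, fell by 0.30 (standard error 0.04, edgeR adjusted p = 5.87e-04), with 13.2% of its sequence words shared with other genes. Cul4b, a subunit of the ligase in which the receptor takes part, rose by 0.20 (standard error 0.04, edgeR adjusted p = 0.00785). Of the 10 coregulators, 2 rose and 2 fell, beside the same shares. The coactivators Ncoa1 and Ncoa3 rose by 0.36 and 0.35 (edgeR adjusted p = 0.00245 and 0.0032), while Med1 fell by 0.51 (edgeR adjusted p = 0.0372).

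Of 9 relatives of the receptor tested, which also pair through PAS domains, 4 rose and 2 fell, beside 16.9% and 17.8% of all genes, and the median log2 fold change was 0.40. Hif1a, the hypoxia factor that shares ARNT with the receptor, had 4559, 4864 and 4009 counts in controls and 6484, 7588 and 6617 with D-gal, a log2 fold change of 0.97 (standard error 0.05, edgeR adjusted p = 9.03e-06). It overlaps a gene on each strand. Epas1, another hypoxia factor that pairs with ARNT, had 51, 41 and 31 counts in controls and 70, 80 and 82 with D-gal, a log2 fold change of 1.27 (standard error 0.19, edgeR adjusted p = 0.00144). It was the 1 relative of the 9 tested past both criteria, beside 4.21% of all genes tested. There were 2 such relatives without control replicate 3, D-gal replicate 1 or D-gal replicate 2, and also in thinned counts. With limma on log2(FPKM + 1) there were 0, with Epas1 at 0.51. Arnt2, a paralog of Arnt, fell by 0.61 (standard error 0.09, edgeR adjusted p = 0.0012). The clock gene Npas2 rose by 0.93 (edgeR adjusted p = 0.011) and Npas4 by 0.40 (edgeR adjusted p = 0.0276), whereas Arntl2 fell by 0.42 (edgeR adjusted p = 0.0147).

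Genes that supply ligands from tryptophan were mostly at or near 0 counts. Of 13 listed, 11 were found in the table and 4 were tested, of which 3 fell, beside 17.8% of all genes. The enzymes Ido1 and Tdo2, which open the kynurenine route, had 3 and 2 counts over all libraries, and Kmo and Kynu had 0. Slc7a5, which carries tryptophan into cells, fell by 0.38 (standard error 0.06, edgeR adjusted p = 0.00146), and its partner Slc3a2 by 0.12 (edgeR adjusted p = 0.0277), a call lost in 8 of 14 alternatives. Il4i1 fell by 0.18 (edgeR adjusted p = 0.00816), but 80.5% of its sequence words occur in other genes and its exons overlap those of Nup62. For electron supply to P450 enzymes, 1 gene of 6 rose and 2 fell, beside 16.9% and 17.8%. Por, the reductase that serves microsomal P450 enzymes, fell by 0.21 (standard error 0.04, edgeR adjusted p = 0.00565). Cyb5r3, a cytochrome b5 reductase, fell by 0.23 (edgeR adjusted p = 0.00191), whereas Cyb5b rose by 0.14 (edgeR adjusted p = 0.00644).

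Among the other 92 P450 genes, 54 had no counts and 13 were tested, of which 2 rose, beside 16.9% of all genes. Cyp26b1, which degrades retinoic acid, had 805, 824 and 565 counts in controls and 1191, 1255 and 1056 with D-gal, a log2 fold change of 1.03 (standard error 0.08, edgeR adjusted p = 6.1e-05). It was the 1 other P450 gene of the 13 tested past both criteria, beside 4.21% of all genes tested. Without control replicate 3 it was at 0.95 and none was past both. Cyp2u1 rose by 0.84 (standard error 0.21, edgeR adjusted p = 0.0176) from 26, 44 and 33 counts, and it was at 0.83 without D-gal replicate 1 and 0.81 without D-gal replicate 3, where it no longer passed.

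The families of the enzymes encoded by Aldh3a1 and Tiparp were read against the same shares of all genes, 16.9% higher and 17.8% lower. Of 14 other ALDH genes tested, 2 rose and 1 fell, with Aldh1a7 at 0.49 (standard error 0.06, edgeR adjusted p = 5.53e-04). Aldh3a2, the neighbour of Aldh3a1, had a log2 fold change of -0.01 (95% interval -0.13 to 0.10). Of 12 PARP genes, 2 rose and 1 fell. Parp10, a mono-ADP-ribosyltransferase, rose by 0.83 (standard error 0.08, edgeR adjusted p = 1.78e-04), although its exons overlap those of Plec on the same strand, and Parp2, a DNA repair enzyme, fell by 0.38 (edgeR adjusted p = 0.00468). Genes on the other strand overlap exons of Ereg, Arnt2, Ncoa1, Ncoa3, Il4i1, Cyb5r3 and Cyp2u1, and their reads could not be told apart if counting ignored the strand.

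**Figure D4:**
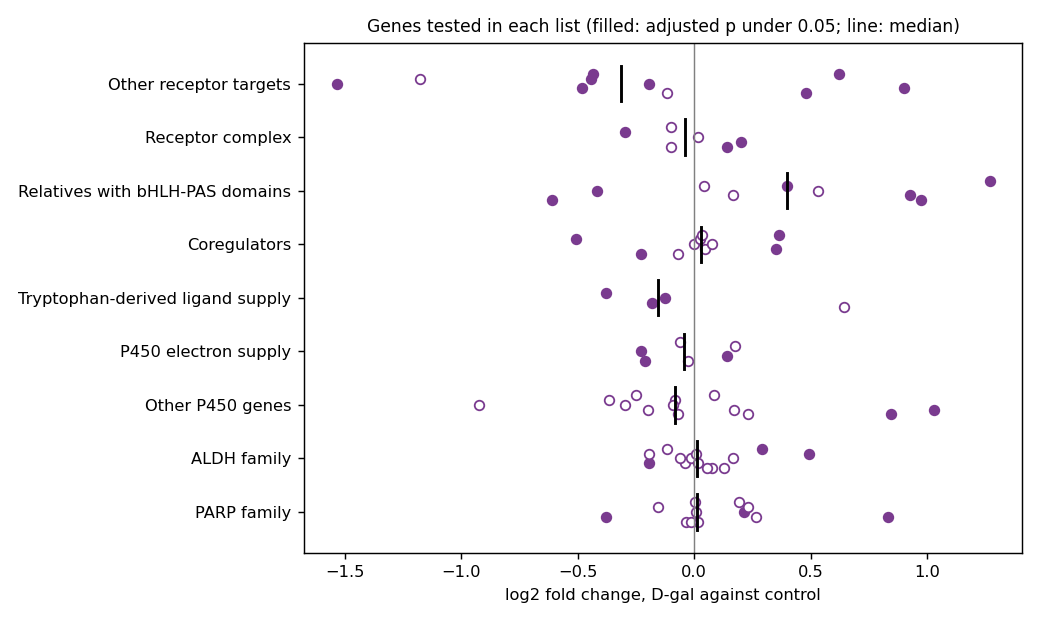
Log2 fold changes of every gene tested in the 9 lists around the receptor; filled points passed an adjusted p-value under 0.05, open points did not, and the line marks the median of a list. The median is -0.31 for the other receptor targets and 0.40 for the bHLH-PAS relatives, and lies between -0.15 and 0.03 in the other lists.

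Summed levels of markers of cell types other than fibroblasts were lower with D-gal or overlapped between the groups. The hepatocyte markers Alb, Apoa1 and Ttr summed to between 0 and 0.421 CPM in control and between 0 and 0.215 in D-gal libraries. The endothelial markers Pecam1, Cdh5 and Kdr summed to between 2.89 and 3.16, and between 2.01 and 2.54. The epithelial markers Epcam, Cdh1, Krt8 and Krt18 summed to between 7.001 and 8.48, and between 1.76 and 2.61, almost all from Cdh1, with Epcam at 0 in every library. The macrophage markers summed to between 3.07 and 9.502, and between 3.41 and 4.02. Of the myogenic markers, Myod1, Myf5 and Pax7 were at 0 in every library, and the list summed to between 2.91 and 3.26, and between 1.74 and 2.02. The share of counts from the mitochondrial genome was 4.26% to 4.44% in control and 4.87% to 4.98% in D-gal libraries, and its part in the results was not tested.

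The genes whose log2 normalized counts followed Cyp1a1 most closely over the 6 libraries were Tmed3 (Pearson's r = 0.999), Mfsd12 (0.997), Otud6b (0.997), Ppt2 (0.997) and Csgalnact2 (0.997). This is a description, since the libraries fall into the groups compared, and 1330 of 10412 genes had an r over 0.9 with Cyp1a1. For Cyp1b1 the closest included Mtmr4 (0.998), Ube2z (0.994), Vldlr (0.993) and Dtl (0.993), and 514 of 10411 genes had an r over 0.9. For Tiparp, which varied little, they were Fh1 (0.964), Fzd3 (0.961), Eef1b2 (0.949), Armc8 (0.946) and Alkbh7 (0.944), and 29 of 10411 genes had an r over 0.9. In 4 of the 6 members tested (Ahr, Cyp1a1, Cyp1b1 and Aldh3a1) the 3 D-gal normalized counts all lay above or all lay below the 3 control ones. This stands beside 49.1% of all genes tested, and nothing is read from this share.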

How the data were processed

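RNA-seq libraries of 3 control and 3 D-gal samples were compared. The labels name an RNA-seq library kit and the methods a small RNA kit, which could not be settled here. The authors checked and trimmed reads with FastQC and Trimmomatic, and the submitters' processing notes list HISAT2 2.0.4. The counting tool and its strand setting are not given in the sources used here. The deposited table holds a raw count for each gene and library, and the authors' FPKM values, which divide counts by a gene length and the library total.

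Counts were fitted over all genes with edgeR 4.0.16 (R 4.3.3) after TMM scaling and filterByExpr, by the quasi-likelihood test without covariates, and p-values were adjusted by Benjamini-Hochberg over the 13407 genes tested. The thresholds (adjusted p-value under 0.05, log2 fold change beyond 1 or -1) follow the methods. Replicates of a group differed by more than sampling noise. Overlaps, exon lengths and sequence words came from GENCODE M21 (GRCm38), which starts Cyp1a1 further upstream than the table and places the ends of Cyp1b1 differently. Functions were tested on simulated data. Members and lists were chosen with earlier results of these data known. Named genes were the members, in each list the 3 smallest p-values and up to 6 genes past both criteria, and the 5 genes most alike in pattern. Some of the named genes are not reported here. Further list genes were named after their values were seen. Alternatives were RLE factors, other filters, DESeq2 1.42.0, a replicate block, leaving out each library, limma 3.58.1 on log2(FPKM + 1), thinned counts, a larger prior count and the adjusted p-value alone. Poisson intervals cover counting error only.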

Additional observations from a re-analysis of the deposited data

How the results depend on the processing

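The log2 fold change of Cyp1a1 lay between 1.03 and 1.99 under 14 alternatives (1.69 to 1.99 with each library left out), and that of Ahr between -0.89 and -0.64 (-0.89 to -0.78). These refits use the libraries from which the group was chosen, so they describe the values and are no further support. The lowest Cyp1a1 value came from limma on log2(FPKM + 1), a scale that understates changes of low genes. Aldh3a1 kept its sign under 13 alternatives (-3.83 to -1.88 with each library left out), and had too few counts for the filter of at least 10 counts in every library. The member count past both criteria was 2, and it was 1 with that filter, 1 with limma on FPKM, 3 at the adjusted p-value alone, and 1 to 2 with each library left out. Values near 0 changed sign: Arnt was 0.013 with limma on FPKM and 0.00035 in thinned counts (-0.061 to 0.015 with each library left out), and Tiparp was 0.015 with limma on FPKM (-0.058 to 0.017 with each library left out). Cyp1b1 lay between -0.11 and -0.075 with each library left out. The count of other receptor targets past both criteria was 1, against 0 with limma on FPKM, 8 at the adjusted p-value alone, and 0 to 2 with each library left out. Over all genes, 564 calls became 119 with limma on FPKM and 4661 at the adjusted p-value alone, and 491 to 572 with each library left out. With the replicate number as a block, 530 genes, 2 members and 1 other target were called. Samples with the same number did not deviate together (correlations -0.0137, -0.0065 and 0.0259), and not every sample correlated best with its own number. With 3 libraries per group this cannot settle whether the numbers pair samples. The naming rule took 37 genes from the lists, and these gave 518 values from alternatives. List genes named later, among them Nqo1, Socs2, Nfe2l2, Ereg, Med1, Npas2, Npas4, Arntl2 and Abcg2, are not counted here. Of the 518 values, 470 kept their direction and side of the threshold, 44 lost the call and 1 gained it. A further 3 changed sign, all 3 of Pecam1 (-0.16 to 0.43 with each library left out). Slc3a2, Parp11, Aldh4a1 and Aldh1l2 were among the genes that lost the call most often. Low counts limit what can be said of Ahrr, Aldh3a1 and the 6 other targets that were too low to test. The cause of the changes between alternatives was not tested.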
